A study of Mus musculus with 12 samples.

Results

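The untreated Myc-CaP cells of this series are its Ctrl group, 2 RNA-seq libraries of the 12 deposited, collected at the 48 h time point and labelled as having received no agent. They were chosen by label alone, and the other 10 libraries, which were treated with oxaliplatin (Oxali), interferon γ (IFNγ) or both, enter none of the values below. The question answered here is what these prostate cancer (PCa) cells expressed without treatment, with weight on genes of lineage, oncogenes, receptors, antigen presentation and immunity. Both libraries are labelled as male FVB/NJ cells, and they were grown in DMEM with fetal bovine serum.

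Myc-CaP is an established mouse line, derived from a prostate carcinoma of a Hi-Myc mouse, in which a human MYC transgene is driven in prostate epithelium by a probasin promoter. MYC is a transcription factor that raises ribosome production, nucleotide synthesis and glycolysis. Tumor cells are seen by cytotoxic T cells through major histocompatibility complex class I (MHC-I) molecules, which carry peptides cut by the proteasome and moved into the endoplasmic reticulum by the TAP transporter. The genes of this route are called the antigen processing and presentation machinery (AgPPM), and IFNγ is their best known inducer. The reads were counted on the mouse genome, so the Myc values below are counts assigned to the mouse gene. Reads of the human transgene that aligned there may be among them, and those that did not align are not. The share of such reads was not tested.

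The Ctrl libraries held 18749975 and 20544590 counts. A level is given as counts scaled to a library total of 1000000 (CPM), as mean ± SD of the 2 libraries, and a gene with 3 or fewer counts in both is called not detected, which corresponds to less than about 0.160 and 0.146 CPM. These limits cover counting error only. Levels of different genes are compared on a second scale, CPM per kilobase of annotated exons (CPM per kb), because a long transcript yields more reads than a short transcript of the same abundance. Detection was met by 14218 of 55216 genes (25.7%) and by 11454 of 21733 protein-coding genes (52.7%). At least 1 CPM in both libraries was reached by 19.6% of all and 46.7% of protein-coding genes. Counts of detected list members below are to be read beside the 52.7%. The floor was populated on both sides, since 861 genes had 3 counts in the higher of the 2 libraries and 605 had 4. Nothing in the labels says whether the replicates came from separate cultures, so the spread between them may be technical. It was small: among 8659 genes with a mean of 10 CPM or more the median absolute log2 ratio of the libraries was 0.05, and none of them differed by more than 1.5-fold. Some zeros need care. Of 13 protein-coding genes of the mitochondrial genome 6 were listed at 0 in both libraries, mt-Co2 and mt-Co3 among them, and in 5 of the 6 at least 98% of the 50-base words of the gene also occur in other annotated transcripts. The remaining gene, mt-Atp8, was at 0 with 0% of its words shared. A low share of shared words therefore does not make a zero certain. Of 189 list members not detected 15 share more than 20% of their words, and their absence is uncertain. They are Itgam, Igf2, Oas1a, Raet1d, Raet1e, Zfy1, Cxcl11, Zfy2, H2-Q6, Rarb, H2-Q7, H2-DMb2, Stat4, Ldhb and Myh6, from 66.3% down to 20.2%.

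The epithelial identity of the cells was checked first, with Myc and the keratins Krt8 and Krt18 as the markers of the line. Myc was detected at 2268 and 2611 counts (124 ± 4.33 CPM, rank 1989 of all genes by CPM). Krt8, a keratin of simple epithelia, had 353 and 399 counts (19.1 ± 0.420 CPM, rank 7481), with 29.7% of its words shared with other genes. Krt18, the usual filament partner of Krt8, had only 4 and 2 counts, which places it at the floor, although just 0.72% of its words are shared. All 3 markers thus met the rule for detection, Krt18 through replicate 1 alone.

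Krt4 and Krt19 were far more abundant than Krt8. Krt4, a keratin of stratified mucosal epithelia, had 579 and 617 CPM and was first among the 18 detected of 49 keratin genes. Per kilobase it was 28.2 times Krt8 in replicate 1 and 29.2 times in replicate 2. Krt19, a keratin of ductal epithelia, had 138 ± 1.99 CPM, and per kilobase it was 7.80 and 7.41 times Krt8. Krt80 (72.5 ± 3.74 CPM), Krt7 (71.7 ± 0.730 CPM) and Krt78 (59.7 ± 0.326 CPM) followed in order of CPM. Per kilobase their order was Krt78 (17.4 ± 0.0950 CPM per kb), Krt80 (11.3 ± 0.585 CPM per kb) and Krt7 (10.2 ± 0.104 CPM per kb), so the order of these 3 depends on the scale. Krt8 had 9.77 ± 0.215 CPM per kb, close to Krt80 and Krt7 on this scale. The basal keratin Krt5 had 1 and 0 counts, and Krt14 had 43 and 64 counts.

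Of the 20 genes of the luminal epithelial list 14 were detected, and the missing members are among the best known epithelial adhesion genes. Cdh1, which codes for E-cadherin, had 1 and 0 counts, and Epcam had 0 and 0 counts, with 0% shared words in each case. The tight junction genes Cldn7 and Ocln, the surface marker Prom1 and the splicing regulator Esrp1 were listed at 0 in both libraries. In all, 8 of the 20 had 10 CPM or more in both libraries, against 38.9% of all protein-coding genes. Among the other junction genes of the list Cldn3 and Tjp1 were abundant, while Cldn4 was low (3.34 ± 0.108 CPM). Cldn3, a claudin of tight junctions, had 323 and 321 CPM, and the scaffold gene Tjp1 had 313 ± 4.76 CPM. The epithelial transcription factor gene Grhl2 was at 50.8 ± 0.976 CPM, but the factor genes Elf3, Ovol1 and Ehf were at 8.04, 4.41 and 1.48 CPM. The surface gene Muc1 had 6 and 5 counts. Of 23 claudins 9 were detected, with Cldn12 (135 ± 4.39 CPM), Cldn10 (41 ± 5.13 CPM) and Cldn1 (40.2 ± 2.51 CPM) after Cldn3, then Cldn9, Cldn4, Cldn2, Cldn18 and Cldn6 between 17.2 and 0.175 CPM. The plot of keratin and luminal genes shows the same gap in both libraries.

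**Figure D1:**
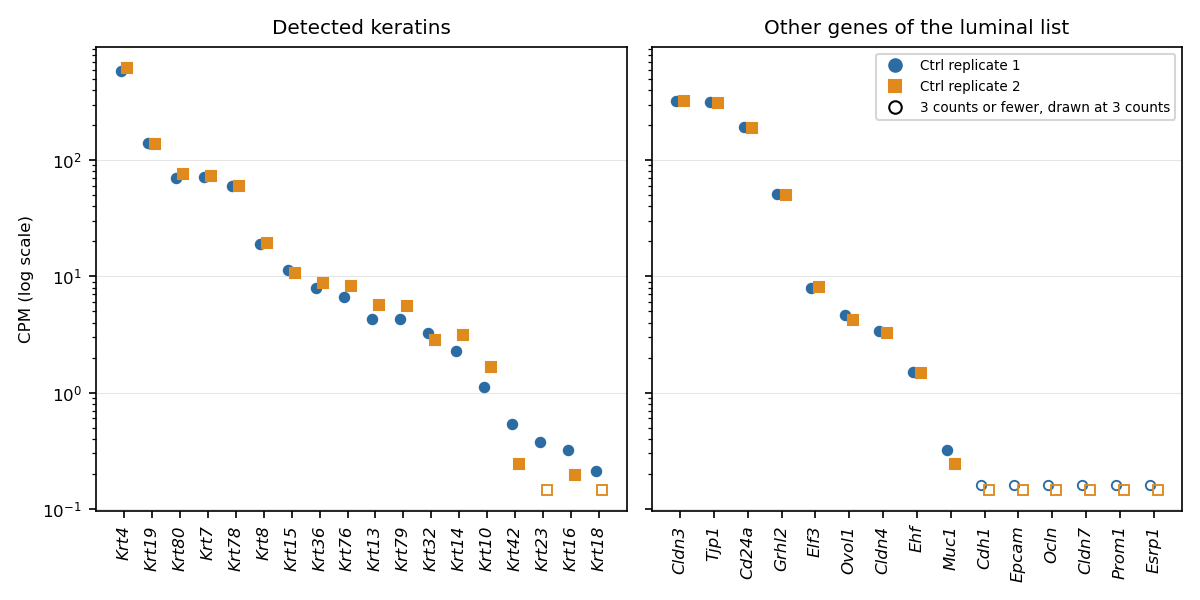
CPM on a log scale in each of the 2 Ctrl libraries for the 18 detected keratins (left) and other members of the luminal list (right); circles are replicate 1, squares replicate 2, and open symbols mark 3 counts or fewer, drawn at 3 counts. Krt4 stands at 598 CPM and Krt18 at the floor, and 6 genes from Cdh1 to Esrp1 were not detected in either library.

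Of 17 mesenchymal genes 5 were detected. Fn1, which codes for the matrix protein fibronectin, led with 111498 and 108353 counts (5947 and 5274 CPM), and ranked 4 of all genes by CPM and 48 per kilobase. Vim, the mesenchymal filament gene vimentin, had 369.8 ± 16.1 CPM, and per kilobase Fn1 was 6.74 and 5.62 times Vim in the 2 libraries. Zeb2, a repressor of Cdh1, was at 42.1 ± 3.80 CPM, and the receptor genes Pdgfra and Pdgfrb were at 14.6 ± 2.75 CPM and 12.8 ± 1.62 CPM. Neither Cdh2, which codes for N-cadherin, nor the repressor genes Zeb1, Snai1, Snai2 and Twist1 were detected. The fibroblast genes Col1a1, Col1a2, Col3a1, Acta2, Dcn, Lum and Thy1 were not detected either. Of the basal list 8 of 12 were detected, led by the integrin gene Itga6 (204 ± 1.97 CPM), while Trp63, the basal master regulator, had 5 and 6 counts, and Krt17, Col17a1 and Dsg3 were not detected. Lamb3 (11.5 ± 0.600 CPM) and Krt15 (11 ± 0.389 CPM) came next on this list, and Itgb4, Jag2 and Ngfr were at 1.54, 1 and 0.590 CPM.

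Markers of leucocytes, endothelium and heart muscle were at or near the floor. Of 17 leucocyte genes Cd68 alone passed, with 10 and 24 counts, and the defining genes Ptprc, Cd3e, Itgam and Csf1r were at 0 in both libraries. Of the words of Itgam 66.3% are shared, chiefly with Gm49368, and of those of Csf1r 14.3%, so these zeros weigh less than those of Ptprc (0.0754%) and Cd3e (2.16%). The summed level of the whole list was 0.533 and 1.31 CPM. None of 7 endothelial genes was detected, with a summed level of 0.0533 and 0.0973 CPM, and Cdh5 and Kdr were at 0. Of 7 heart muscle genes Tnnt2 had 15 and 21 counts and Nppa 0 and 4 counts. The other 5, Myh6 and Actc1 among them, were at 0. Of 12 neuroendocrine genes 3 were detected. Ncam1, an adhesion gene that neural cells also use, had 84.5 ± 0.0620 CPM, Calca had 51 and 45 counts and Syp had 6 and 1 counts. The neuroendocrine regulators Insm1 and Neurod1 and the granule genes Chga and Chgb were at 0.

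The labels give the cells as male, and no gene of the Y chromosome list was seen. Ddx3y, Uty, Kdm5d, Eif2s3y, Usp9y, Zfy1, Zfy2 and Sry had 0 counts in both libraries, and 0.0384% of the words of Ddx3y are shared. Zfy1 and Zfy2 share 42.8% and 40.2% of theirs with each other, while the other Y-linked genes named share at most 2.49%. Xist, the RNA of the inactive X chromosome, had 0 and 1 counts. Among all 175 protein-coding genes placed on the Y chromosome 1 was detected, Gm47283 with 145 and 145 counts. Whether the chromosome itself is present was not tested.

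The most abundant transcripts were those of protein synthesis, glycolysis, chaperones and the cytoskeleton, with Aldh1a1 and Fn1 among the first 4. Eef1a1, an elongation factor gene of translation, was first with 7419 and 7277 CPM. Aldh1a1, which codes for an aldehyde dehydrogenase that makes retinoic acid, came second with 112122 and 117179 counts (5842 ± 195 CPM) and kept rank 15 per kilobase. Others of the first 12 by CPM were the chaperone gene Hsp90ab1 (5613 CPM), the elongation factor gene Eef2 (4518 CPM), the pyruvate kinase gene Pkm (4452 CPM), the calcium-binding S100a6 (3957 CPM), Actb, Rplp0, Ldha and Rack1. Ranks 13 to 30 held Ncl, Rpl4, Pabpc1, Npm1, Scd2, mt-Co1, Atp5b, Eif4g2, Hnrnpa2b1, Itga3, P4hb, Anxa1, Ddb1, Rpl8, Rps3, Ppia, Eif4g1 and Aldoa, from 2736 down to 1635 CPM. Scd2 (2464 ± 6.33 CPM) is a fatty acid desaturase gene, and Itga3 (1990 ± 84.2 CPM) codes for a laminin-binding integrin. The 30 genes took 9.20% and 9.04% of all counts, and 991 genes took 50%.

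Per kilobase the ranking shifted to short transcripts, and 15 of the 30 highest by CPM were also among the 30 highest of all genes on this scale. Rplp1 (3200 ± 9.45 CPM per kb), Eef1a1 (2947 ± 40.4 CPM per kb) and S100a6 (2894 ± 111 CPM per kb) led the protein-coding genes. Lgals1, which codes for the sugar-binding protein galectin-1, was the sixth with 1532 ± 45.6 CPM per kb, and B2m, the light chain of MHC-I, was among the 30 with 805 ± 21.4 CPM per kb. Cytosolic ribosomal protein genes took 4.97% and 4.92% of counts, with 80 of 83 detected, and mitochondrially encoded genes took 0.769% in each library, a share that leaves out the genes listed at 0.

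The MYC network was expressed with Myc as its only family member. Mycn and Mycl, its paralogs, were at 0 in both libraries, as was Mlxipl, and 10 of 13 genes of the list were detected. Myc (chromosome 15, 61985391 to 61990374, GRCm38) had 45.6 ± 1.60 CPM per kb, which was 1.71 and 1.74 times the level of its partner Max. On the longest annotated transcripts in place of merged exons the mean ratio was 1.08, so the order of Myc and Max depends on the transcript length used. The antagonists Mnt (55.7 ± 0.576 CPM), Mxi1 (38.3 ± 2.58 CPM), Mxd4 (34.3 ± 3.80 CPM), Mxd3 (21 ± 2.35 CPM) and Mxd1 (6.19 ± 0.292 CPM) were all detected, as were Mga and the related Mlxip and Mlx.

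Of 20 MYC targets 19 were detected, with a median of 380 CPM over the list against 0.308 CPM over all protein-coding genes. The latter median takes in 10279 protein-coding genes that were not detected. Ldha, the lactate dehydrogenase gene, had 3081 and 3007 CPM, the nucleolar genes Ncl and Npm1 had 2736 and 2538 CPM, and Cad, the first enzyme of pyrimidine synthesis, had 1016 ± 22 CPM. The chaperone gene Hspd1 was at 1267 ± 17.5 CPM with 42.1% shared words, and Mybbp1a, Eif4a1 and Cdk4 were at 1065, 637 and 582 CPM. Tert, the telomerase gene, had 14 and 26 counts, which differ by 1.69-fold after scaling. Ccnd2, a cyclin gene, was the member not detected, with 0 in both libraries.

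MYC with MAX binds the word CACGTG, called an E-box, and the promoter sequences of RefSeq (GRCm38.p6) were searched for it from 250 bases before to 50 after the start of each gene. The word reads the same on both strands. It occurred in 6 of the 16 windows matched for MYC targets (37.5%), against 8.11% of 16515 protein-coding windows. These 2 shares rest on reference sequence and the choice of list, and use no level measured in these cells. Across all protein-coding windows the share with the word was 5.23% for genes not detected and 7.12% for genes detected under 10 CPM. It was 11.1% from 10 to 100 CPM and 12.5% at 100 CPM or more. The median number of CG dinucleotides rose over the same classes from 4 to 14, 22 and 24, so base composition moved with level too, and its part in the E-box share was not tested. The stretches before the start of the 3 most abundant targets with an E-box outside annotated exons follow, to show where the word stands in targets that were abundant in these cells. Capitals mark each CACGTG, of which Ldha has 2, Eif4a1 has 1 and Cdk4 has 4. They lie at chr7:46845644-46845803 (plus strand) for Ldha, chr11:69672424-69672622 (minus strand) for Eif4a1 and chr10:127063353-127063533 (plus strand) for Cdk4, and are written 5′ to 3′ on the strand of the gene.
Ldha: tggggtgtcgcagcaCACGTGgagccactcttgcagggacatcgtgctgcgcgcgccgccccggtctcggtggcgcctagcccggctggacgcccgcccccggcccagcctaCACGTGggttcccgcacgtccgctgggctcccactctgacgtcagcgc
Eif4a1: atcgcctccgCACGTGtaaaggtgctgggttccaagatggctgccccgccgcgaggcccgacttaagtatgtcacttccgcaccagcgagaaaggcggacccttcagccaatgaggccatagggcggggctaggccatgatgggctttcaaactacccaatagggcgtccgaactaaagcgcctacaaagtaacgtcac
Cdk4: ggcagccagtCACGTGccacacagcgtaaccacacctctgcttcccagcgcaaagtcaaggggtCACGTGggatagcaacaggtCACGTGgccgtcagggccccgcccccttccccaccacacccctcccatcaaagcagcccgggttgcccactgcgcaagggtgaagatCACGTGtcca

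Of the 20 genes of the prostate programme list 10 were detected (50%), near the 52.7% of all protein-coding genes. Foxa1, a pioneer factor of luminal epithelium, had 413 ± 3.92 CPM, Gata3 had 174 ± 0.609 CPM, and Hoxb13, the homeobox factor of the prostate, had 797 and 795 counts (40.6 ± 2.69 CPM). Among other members of the list, the co-chaperone gene Fkbp5 had 644 ± 9.77 CPM, Zbtb16 had 93.2 ± 4.33 CPM and the transporter gene Abcc4 had 74.5 ± 0.230 CPM. Slc45a3, Acpp and Tgm4 were at 1.98, 1.07 and 0.182 CPM. The protease gene Tmprss2 and the secretory genes Pbsn, Msmb, Svs2, Svs5 and Spink1 were at 0 in both libraries, and none of the words of Tmprss2 is shared. Svs4 had 1 and 0 counts, Gata2 0 and 1 counts and Ndrg1 0 and 2 counts.

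Among 21 nuclear receptors 14 were detected. They included Nr2f2 (183 ± 0.999 CPM), the retinoic acid receptor gene Rarg (87.2 ± 3.04 CPM), its partner Rxra (63.5 ± 3.85 CPM), the vitamin D receptor gene Vdr (62 ± 0.529 CPM), Rxrb (53.4 ± 2.91 CPM), Nr1h2 (51 ± 1.10 CPM) and Rara (39.2 ± 0.699 CPM). The estrogen receptor gene Esr1 was at 18.6 ± 1.42 CPM and Esr2 was not detected. Nr3c1, the glucocorticoid receptor, was at 0 in both libraries, with 0.0643% of its words shared, and the progesterone and mineralocorticoid receptor genes Pgr and Nr3c2 were also at 0. Rarb, Pparg and Thrb were not detected.

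Homeobox genes of the Hox clusters were detected for 24 of 39, and 11 reached 1 CPM in both libraries, against 46.7% of all protein-coding genes. Hoxb13 led, followed by Hoxa7 (34.5 ± 1.33 CPM), Hoxb9 (18.3 ± 1.41 CPM), Hoxd9 (10.3 ± 1.06 CPM), Hoxa9 (6.99 ± 0.304 CPM), Hoxd8 (5.94 ± 0.420 CPM), Hoxa3 (5.63 ± 0.112 CPM) and Hoxa5 (4.95 ± 0.536 CPM). Per kilobase Hoxb13 (18.4 ± 1.22 CPM per kb) was above Hoxa7 (12 ± 0.461 CPM per kb). On the longest annotated transcripts their means were 18.4 and 17 CPM per kb, so the size of the gap depends on the length used. The posterior genes Hoxa13 and Hoxd13, which act in urogenital development, were not detected.

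Of 34 oncogenes and tumor suppressors 32 were detected (94.1%, against 52.7% of all protein-coding genes). Ctnnb1, which codes for β-catenin, had 614 ± 6.04 CPM, Akt1 523 ± 12.5 CPM and the cyclin gene Ccnd1 423 ± 21.4 CPM, the last with 21.6% shared words. Nras, Nf2, Smad4, Mcl1 and Bcl2l1 lay between 190.4 and 159 CPM, and the ubiquitin ligase adaptor gene Spop at 237. The suppressor gene Trp53 (151 ± 3.18 CPM) and the Cdkn2a locus (2451 and 2685 counts, 131 ± 0.0204 CPM) were both expressed. Cdkn2b, the neighbour of Cdkn2a, had 23 and 29 counts, and per kilobase Cdkn2a was 126 and 110 times as high. Rb1 had 28.1 ± 2.72 CPM and the p53 target Cdkn1a 23.4 ± 0.539 CPM. The ETS factor genes Erg and Etv1, whose human counterparts are often rearranged in PCa, were at 0, while Etv4 (54.8 ± 5.39 CPM) and Etv5 (33.9 ± 1.20 CPM) were detected.

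All 20 proliferation genes were detected, with a median of 243 CPM over the list. Top2a, the topoisomerase of dividing cells, had 1067 and 1067 CPM, Mki67 had 596 ± 29.2 CPM and the replicative helicase genes Mcm2 to Mcm7 lay between 302 and 495 CPM. Ccne1 was the lowest member at 38.1 ± 3.87 CPM. Glycolysis genes were detected for 16 of 17. Pkm and Ldha led, and per kilobase Ldha was 1.03 times Pkm in each library (0.916 as the mean on longest transcripts). Aldoa, Gapdh, Pgk1, Eno1, Tpi1 and Gpi1 lay between 706 and 1635 CPM, with over 20% shared words in Pkm, Gapdh, Pgk1 and Eno1. Lactate can leave cells through the transporters Slc16a1, here at 408 ± 11.7 CPM, and Slc16a3, here at 7 and 6 counts. Ldhb, the other lactate dehydrogenase subunit gene, had 1 and 2 counts.

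Of 16 oncofetal genes 6 were detected (37.5%, against 52.7% of all protein-coding genes). The RNA-binding Igf2bp2 (122 ± 1.91 CPM), Igf2bp3 (47.5 ± 4.92 CPM) and Igf2bp1 (19.3 ± 0.922 CPM) were expressed, as were the chromatin gene Hmga1 (148 ± 6.02 CPM) and the factor genes Sox4 (90.5 ± 1.02 CPM) and Sox9 (46.5 ± 2.43 CPM). Over 50% of the words of Hmga1 and Sox4 are shared. The imprinted genes H19, Igf2, Dlk1, Meg3 and Peg3 were at 0 (with 62.1% of the words of Igf2 shared, chiefly with Gm49394, and 10.4% of those of Meg3), as were Lin28a, Lin28b, Hmga2 and Sox2, and Afp had 1 and 0 counts.

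Growth factor receptors were represented by 25 of 31 genes. Met, the hepatocyte growth factor receptor, had 462 and 469 CPM, and Axl, a TAM family receptor, had 434 and 460.1 CPM. Igf1r (176 ± 6.87 CPM), Ddr1 (164 ± 0.454 CPM), Bmpr1a (161 ± 0.246 CPM), Notch2 (153 ± 5.90 CPM), Insr (145 ± 6.62 CPM) and Fgfr2 (145 ± 3.52 CPM) followed in order of CPM. Per kilobase Ddr1 (34.4 CPM per kb) and Bmpr1a (25.3 CPM per kb) stood above Igf1r (10.5 CPM per kb) and Insr (10.6 CPM per kb), so this order depends on the scale. Of the EGF receptor family, Erbb2 (22.8 ± 0.0677 CPM per kb) stood above Erbb3 (8.72 ± 0.00523 CPM per kb) and Egfr (1.64 ± 0.0580 CPM per kb) per kilobase. Fgfr1, Fgfr4, Erbb4, Kit and Flt3 were at 0 in both libraries and Mst1r had 1 and 0 counts. Of 13 surface proteins studied as PCa targets 11 were detected, with Msln (339 ± 13 CPM), Steap2 (307 ± 5.66 CPM), Psca (269 ± 3.07 CPM), Cd44 (98.6 ± 0.463 CPM), Steap1 (81.5 ± 0.479 CPM), Tpbg (31.9 ± 0.726 CPM) and Steap4 (22.9 ± 0.644 CPM) in this order of CPM. Folh1, which codes for prostate-specific membrane antigen, had 7.45 ± 0.625 CPM, and per kilobase Psca was 128 and 142 times as high. Cd276 and Epcam were not detected.

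**Figure D2:**
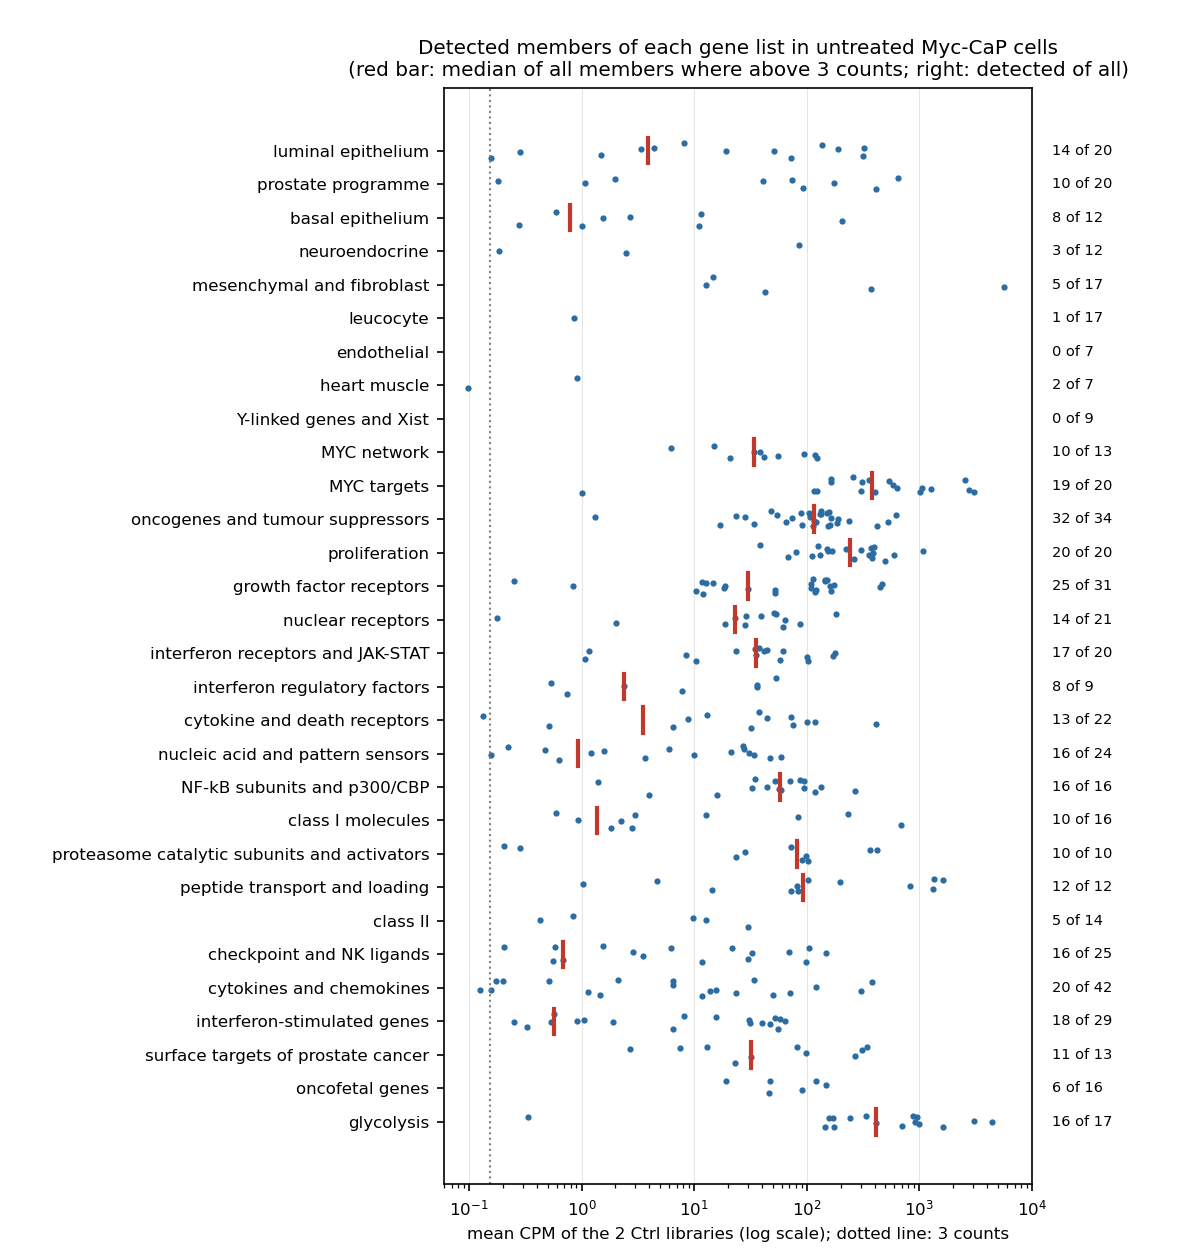
Mean CPM of the 2 Ctrl libraries on a log scale for the detected members (points) of 30 gene lists, leaving out a few genes that are not reported here, with the median of all members as a red bar where it lies above the floor, the floor of 3 counts as a dotted line and the number detected at the right. All 20 proliferation genes and 19 of 20 MYC targets lie above the floor, whereas 1 of 17 leucocyte and 0 of 7 endothelial genes were detected.

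The IFNγ receptor was expressed with a gap between its chains. Ifngr1, the ligand-binding chain, had 624 and 738 counts (34.6 ± 1.87 CPM), and Ifngr2, the signalling chain, had 24 and 18 counts (1.08 ± 0.286 CPM). Per kilobase Ifngr1 was 34.4 times Ifngr2 in replicate 1 and 54.2 times in replicate 2. Few of their words are shared, 0.545% for Ifngr1 and 0.106% for Ifngr2. For the type I receptor the gap was narrower, with Ifnar1 (61.1 ± 1.96 CPM) at 3.35 and 3.29 times Ifnar2 (10.3 ± 0.198 CPM) per kilobase. The kinase genes Jak1 (170.0 ± 0.754 CPM) and Jak2 (176 ± 3.04 CPM) were well expressed, and Tyk2 was at 44.4 ± 2.35 CPM. Stat3 was at 57.3 ± 1.61 CPM, and Stat5b (102 ± 3.29 CPM) and Stat6 (99.5 ± 2.35 CPM) were the STAT genes of highest CPM. In all 17 of 20 genes of this list were detected, and Ifnlr1, Jak3 and Stat4 were not.

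Of 9 IRF genes 8 were detected. Irf3 (53.5 ± 0.251 CPM), Irf1 (36.3 ± 1.05 CPM) and Irf2 (36.2 ± 0.327 CPM) were the 3 members with 10 CPM or more in both libraries, and per kilobase Irf1 (9.12 ± 0.263 CPM per kb) stood above Irf2 (4.89 ± 0.0442 CPM per kb). Irf9 was at 7.82 ± 0.181 CPM and Irf4 at 2.36 ± 0.171 CPM. Irf7, which amplifies type I responses, had 15 and 14 counts, and per kilobase Irf3 was 73.6 and 85.8 times as high. Irf8 had 12 and 9 counts and Irf5 was not detected.

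Interferon-stimulated genes ranged widely in level, as did protein-coding genes in general. Of 29 genes 18 were detected (62.1%, against 52.7% of all protein-coding genes). In both libraries 9 of the 29 reached 10 CPM, against 38.9% of all protein-coding genes. Bst2, which tethers budding virus at the membrane, had 65.1 and 62.9 CPM, the immunity-related GTPase gene Irgm1 had 57.6 ± 1.77 CPM, and Eif2ak2, the kinase PKR, had 55.2 ± 2.45 CPM. Ifit2 (52.1 ± 2.36 CPM), Adar (47.2 ± 1.67 CPM), Ifitm2 (40.1 ± 2.41 CPM), Parp9 (31 ± 0.996 CPM) and Dtx3l (30.4 ± 2 CPM) were next. At the other end, Mx1, Rsad2, Gbp5 and Cmpk2 were at 0 in both libraries, and Ifit1, Oas1a, Oas2, Oasl1, Mx2, Gbp4 and Iigp1 had at most 2 counts in a library. Isg15 had 160 and 159 counts and Gbp2 18 and 18 counts.

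Many of these genes carry in their promoters the word GAAANNGAAA, the core of an interferon-stimulated response element, which was searched on both strands (TTTCNNTTTC on the other) in the same windows. It occurred in 15 of the 21 windows matched for the list (71.4%), against 3.45% of all protein-coding windows. Here too the shares rest on reference sequence and the choice of list, and not on levels in these cells. The word was present in 11 of 15 windows of detected members and in 4 of 6 windows of members not detected. In MHC-I genes it was found in 3 of 12 windows, those of B2m, H2-T22 and H2-T23. The word thus stood before genes of the list from 64.0 CPM to 0. To show this, the exon-free stretches of the highest 2 and the lowest 2 members that have one are given 5′ to 3′ on the gene's strand, with the word in capitals. They lie at chr8:71537473-71537632 (minus strand) for Bst2, where 2 matches overlap, chr7:140955988-140956147 (minus strand) for Ifitm2, chr3:142496740-142496899 (plus strand) for Gbp5 and chr12:26456453-26456612 (minus strand) for Rsad2. Members without an exon-free stretch of sufficient length around the word, such as Irgm1, were passed over, and 48.5% of the words of the Ifitm2 transcript are shared with other genes.
Bst2: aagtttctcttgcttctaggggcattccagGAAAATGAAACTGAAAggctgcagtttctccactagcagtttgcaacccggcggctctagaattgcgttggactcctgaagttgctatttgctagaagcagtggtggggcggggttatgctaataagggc
Ifitm2: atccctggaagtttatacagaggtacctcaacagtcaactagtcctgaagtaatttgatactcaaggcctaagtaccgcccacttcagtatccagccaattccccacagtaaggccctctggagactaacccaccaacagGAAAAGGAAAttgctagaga
Gbp5: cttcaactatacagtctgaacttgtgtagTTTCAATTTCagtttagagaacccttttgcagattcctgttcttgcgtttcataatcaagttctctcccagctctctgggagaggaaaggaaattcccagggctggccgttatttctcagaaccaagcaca
Rsad2: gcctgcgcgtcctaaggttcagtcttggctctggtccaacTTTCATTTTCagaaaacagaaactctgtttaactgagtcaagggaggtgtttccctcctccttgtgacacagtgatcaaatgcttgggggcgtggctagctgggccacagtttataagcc

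MHC-I heavy and light chains were transcribed without any added IFNγ. B2m (chromosome 2, 122147686 to 122153083) had 13220 and 13950 counts (705 and 679 CPM), the highest of the list, and H2-D1 and H2-K1, the classical heavy chains, had 237 and 226 CPM and 84.7 and 82.5 CPM. Per kilobase B2m was 8.94 and 9.01 times H2-D1, and H2-D1 was 3.18 and 3.12 times H2-K1. The reference genome carries the H2 haplotype of C57BL/6J, which differs from that of FVB, and 12.8% of the words of H2-D1 and 9.63% of those of H2-K1 are shared with other genes, so reads can be lost or moved among these genes. The nonclassical H2-Q4 had 12.8 ± 0.755 CPM with 36.4% shared words, and H2-Q2, H2-M3, H2-T22, Mr1, H2-T23 and H2-Q1 lay between 2.98 and 0.595 CPM. H2-Q6, H2-Q7, H2-Q10, H2-T24 and Cd1d1 were not detected, and neither was Nlrc5 (2 and 0 counts, 0.338% shared words), the transactivator of MHC-I genes. In all, 10 of 16 genes were detected.

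In 2 of the 3 catalytic pairs of the proteasome the constitutive gene far exceeded its immunoproteasome counterpart. Psmb6, a constitutive subunit, had 1702 and 1896 counts and its immunoproteasome counterpart Psmb9 had 7 and 4 counts, a ratio of 475 and 927 per kilobase. Psmb5 had 435 and 488 counts and its counterpart Psmb8 4 and 4 counts, a ratio of 409 and 459, although 54.1% of the words of Psmb5 are shared. With 4 to 7 counts in the lower gene, these ratios are imprecise, and they also depend on the transcript length used. On the longest annotated transcripts the mean ratio was 962 for Psmb6 over Psmb9 (701 on merged exons). For Psmb5 over Psmb8 it was 244 (434 on merged exons). The third pair was different, because Psmb10 had 530 and 586 counts against 1956 and 2065 for Psmb7, a ratio of 1.84 and 1.76. The activator genes Psme1 (73 ± 1.48 CPM), Psme2 (98.3 ± 4.51 CPM), Psme3 (364 ± 12.2 CPM) and Psme4 (422 ± 8.46 CPM) were all expressed.

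Genes of peptide transport and loading were all 12 detected, and the TAP genes were the lowest of them. Canx, Hspa5, Calr and Pdia3, chaperones of the endoplasmic reticulum, had 1621, 1343, 1331 and 826 CPM. Lnpep (196 ± 7.25 CPM), Ifi30 (103 ± 1.57 CPM), Tapbp (84 ± 2.47 CPM), Sec22b (81.5 ± 0.459 CPM) and the trimming peptidase gene Erap1 (72.9 ± 0.644 CPM) were intermediate. Tap1 (chromosome 17, 34187553 to 34197225) had 18 and 23 counts and Tap2 76 and 108 counts. Per kilobase Tap2 was 6.12 and 6.80 times Tap1, and Tapbp, which codes for the tapasin bridge between TAP and MHC-I, was 135 and 111 times Tap1. Tap1 and Psmb9 lie on opposite strands and share 212 exon bases at their starts, and a read there cannot be assigned to either gene if strand was not used in counting. The levels per kilobase of the genes from receptor to peptide loading are plotted together.

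**Figure D3:**
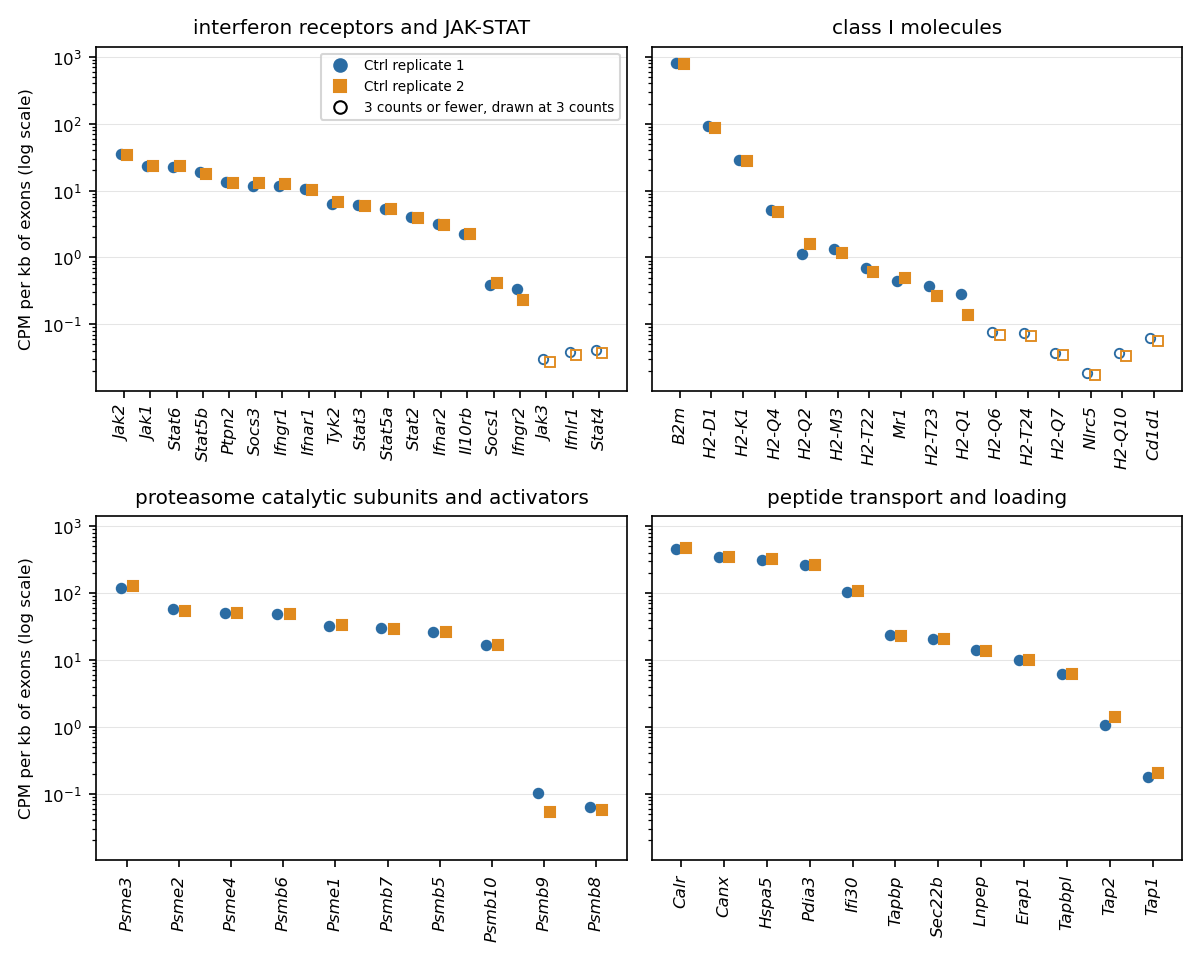
CPM per kilobase of annotated exons, on a log scale, in Ctrl replicate 1 (circles) and replicate 2 (squares) for interferon receptor and JAK-STAT genes, MHC-I molecules, proteasome subunits and peptide loading genes; open symbols mark genes with 3 counts or fewer, drawn at 3 counts. Psmb8 and Psmb9 fall far below the other 8 proteasome genes, and Tap1 and Tap2 lie below the other 10 loading genes.

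The chains of MHC class II, which present peptides to helper T cells, were not detected. H2-Aa, H2-Ab1, H2-Eb1 and H2-Eb2 were at 0 in both libraries, the invariant chain gene Cd74 had 2 and 1 counts and the transactivator gene Ciita had 0 and 1 counts. Of 14 genes of the list 5 were detected. They were the ubiquitous promoter factors Rfxap (30.3 ± 1.13 CPM), Rfx5 (12.7 ± 1.79 CPM) and Rfxank (9.77 ± 0.0167 CPM) and the peptide exchange genes H2-DMa (12 and 21 counts) and H2-DMb1 (5 and 12 counts).

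Among 25 checkpoint and natural killer (NK) cell ligands 16 were detected. Cd274, which codes for PD-L1, was low with 33 and 28 counts (1.56 ± 0.281 CPM), and Pdcd1lg2, the PD-L2 gene, was not detected. Cd276, the B7-H3 gene, was at 0 in both libraries with 9.92% of its words shared. The galectin genes Lgals3 (148 ± 4.36 CPM) and Lgals9 (104 ± 3.31 CPM), the phagocytosis brake Cd47 (98.4 ± 0.265 CPM) and the nectin family genes Nectin2 (69.6 ± 3.13 CPM) and Pvr (30.2 ± 1.45 CPM) were the most abundant together with the NKG2D ligand gene Ulbp1 (32.9 ± 1.04 CPM). Arg1 had 21.6 ± 0.334 CPM and Nt5e 11.6 ± 0.616 CPM. The costimulatory genes Cd80 and Cd86 were not detected.

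Cytokine genes were detected for 20 of 42, a share of 47.6%, near the 52.7% of all protein-coding genes. Spp1, which codes for the secreted protein osteopontin, had 376 ± 2.81 CPM, Mif 300.1 ± 1.03 CPM and the alarmin gene Il33 122 ± 4.56 CPM, and 50.9% of the words of Mif are shared. Tgfb3 (70.8 ± 3.82 CPM), Vegfa (50.3 ± 3.43 CPM), Tgfb1 (34 ± 0.685 CPM), Tgfb2 (23.7 ± 0.886 CPM) and Csf1 (15.5 ± 0.544 CPM) followed. Ifnb1, Tnf, Il6, Ccl2, Ccl5 and Cxcl9 were at 0 in both libraries, Ifng had 1 and 0 counts, and Cxcl10 had 4 and 2 counts. Receptor genes for such signals were detected for 13 of 22, led by Tnfrsf21 (409 ± 7.76 CPM), Tnfrsf1a (117 ± 0.276 CPM), Ltbr (101 ± 3.64 CPM), Tnfrsf1b (75.7 ± 5.04 CPM) and Il6st (72.3 ± 0.570 CPM), and Fas and Cd40 were not detected.

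Of 24 genes that sense nucleic acids and microbial patterns, or relay the signal, 16 were detected. Mavs (59 ± 0.751 CPM), the adaptor of the RNA sensors, and the kinase gene Tbk1 (46.8 ± 2.05 CPM) led in CPM. The DNA sensor gene Cgas had 376 and 455 counts (21.1 ± 1.48 CPM) and its adaptor Tmem173, which codes for STING, had 77 and 65 counts (3.64 ± 0.667 CPM). Among Toll-like receptors Tlr4 was at 30.6 ± 0.253 CPM and Tlr3 at 27.3 ± 0.285 CPM, and Tlr1, Tlr2, Tlr8 and Tlr9 were not detected. The RNA sensor gene Ddx58 was at 9.92 ± 0.00679 CPM, and Ifih1, Aim2, Zbp1 and Nod2 were not detected. All 16 genes of the NF-κB and p300/CBP list were detected. Bag6, a chaperone gene and p300 partner, had 269 ± 10.3 CPM, Ep300 had 134 ± 9.15 CPM and Crebbp 71.2 ± 2.51 CPM, and per kilobase Ep300 was 1.83 and 1.75 times Crebbp. Of the NF-κB subunits, Nfkb1 was at 118 ± 0.354 CPM, Rela at 87.7 ± 2.40 CPM, and Nfkb2, Rel and Relb at 44.7, 32.8 and 3.93 CPM.

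The libraries differed little from each other, and the differences were mostly in genes of few counts. Of 10953 genes with a mean of 1 CPM or more 134 differed by over 1.5-fold (1.22%) and 16 by over 2-fold. Over these genes the chi-square per degree of freedom was 1.86, above the value near 1 of sampling noise, so the libraries are not copies of each other. Among genes of at least 10 CPM those highest in replicate 1 relative to replicate 2 were Malat1 (269 and 199 CPM, 1.35-fold), Calcoco1, Tcp11l2, Mib2 and Aldoc, and those highest in replicate 2 included Fosl1 (9.01 and 12 CPM, 1.33-fold), Tepsin, Ubtd2 and Ovca2. Gm6278, a processed pseudogene on chromosome 16 picked out after its values were seen, had 342 and 5 counts and was the widest gap among genes of at least 1 CPM. Of the genes listed above, those with a gap of more than 1.5-fold were all under 1.5 CPM, among them Psmb9, H2-Q1, Gbp7, H2-DMb1, Cd68 and Tert.

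**Figure D4:**
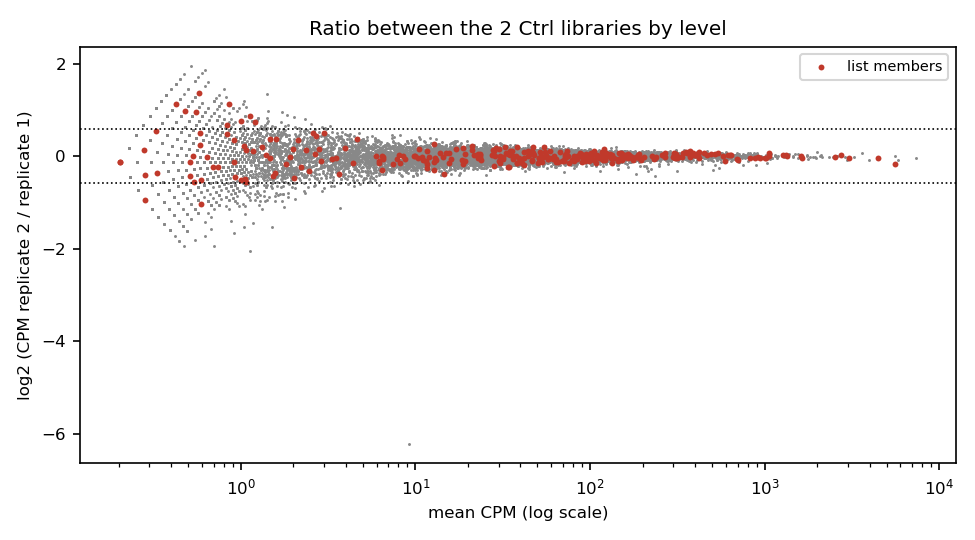
Log2 ratio of replicate 2 to replicate 1 in CPM against the mean CPM on a log scale, for genes with more than 3 counts in both Ctrl libraries; list members are red and the dotted lines mark 1.5-fold. The spread narrows with level, and none of the 8659 genes at 10 CPM or more lies outside the lines.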

How the data were processed

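RNA of untreated Myc-CaP cells (Ctrl, 2 libraries, poly(A) RNA, a stranded TruSeq kit) was used, and the columns of the other 10 libraries were not. The values are raw counts, 1 row per gene symbol, as deposited. The methods describe alignment by STAR to GRCm38, GENCODE models and counting by featureCounts; the submitters' processing notes name STAR 2.7.3a and RSEM 1.3.0, so the counter is uncertain, and whether strand was used is not given in the sources used here.

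Counts were divided by the library total to give CPM, and by merged exon length (a GENCODE release on GRCm38, in which 53559 of 55216 symbols were found) to give CPM per kb. Symbols without a match held 0.264% of counts. A gene was detected with more than 3 counts in at least 1 library. TMM (edgeR 4.0.16) and DESeq2 1.42.0 size factors (R 4.3.3) served as other scalings. The other steps were run in Python 3.11.15 with pandas 2.3.3. Simulated data were used only in R, for the spread between libraries and the log2 ratio. No group was compared with another, so no test was run. Shared words are the 50-base words of a gene's exons also found in another annotated transcript.

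The members and the 30 gene lists described here were chosen with earlier results of these data known. Named genes were the 30 highest by CPM, the leaders per kb, up to 8 detected members of each list, its members not detected, detected keratins, claudins and Hox genes, and the 5 genes highest in each library relative to the other (some leaders are given by range). Further members such as Ifngr2, Tap1 and Cd274 were named after their values were seen. Some genes of these lists are not reported here by name or drawn, and the counts of list members include them. Alternatives were other detection limits, scalings, lengths, and leaving out each library.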

Additional observations from a re-analysis of the deposited data

How the results depend on the processing

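No paired analysis was possible because a single group was described and nothing was compared between groups. The count of 14218 detected genes ranged from 10815 (at least 1 CPM in both libraries) to 19958 (at least 1 count in a library), and from 13560 to 13637 with a library left out. With at least 1 CPM required in both libraries, 5 basal, 0 leucocyte, 0 heart muscle, 5 IRF, 3 class II and 11 Hox genes were detected. With at least 10 counts in both, 15 Hox genes and 1 heart muscle gene were, and with more than 3 counts in both 1 heart muscle gene was. Leaving out a library gave 1 to 2 heart muscle genes, since Nppa passed through Ctrl replicate 2 alone and without it only Tnnt2 passed. With at least 1 count in a library, a limit applied to the lists after seeing the data, 33 keratins, 9 mesenchymal, 8 class II, 5 neuroendocrine, 4 leucocyte and 1 endothelial gene passed. On the list of Y-linked genes and Xist, Xist alone passed. The counts of the other lists stayed within 1.5-fold under all of these limits. The median level of detected genes was 22.8 CPM, 22.7 CPM without either library and 22.9 CPM with mitochondrially encoded genes left out of the total. Of the 30 highest genes by CPM, 15 were among the 30 highest per kb of merged exons and 17 per kb of the longest transcript. TMM and DESeq2 size factors moved no list member by more than 0.289%. Depth limits what can be said below about 0.160 CPM, and 2 libraries of a single group give no test of any level. Of the list members, 50 share more than 20% of their words with other genes, and their levels are less certain.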
